A study of Mus musculus with 6 samples.

Results

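The enzymes of glycolysis and the isozymes around pyruvate dehydrogenase were described in C2C12 myotubes, the fused muscle cells that this mouse myoblast line forms in low-serum medium. The 38 genes were taken by gene name from a table of 55401 genes. They covered every enzyme step from hexokinase to pyruvate kinase, fructose 2,6-bisphosphate control, lactate dehydrogenase, the mitochondrial pyruvate carrier, pyruvate dehydrogenase with its kinases and a phosphatase, and the glycerol phosphate shuttle. 39 rows carried these names, since Aldoa stood under 2 gene identifiers, and all 38 genes passed the filter on low counts. 3 cultures received siRNA that targets SENP7, which strips the small protein tag SUMO off other proteins, and 3 received GL2 siRNA, which is directed against firefly luciferase and served as the control. Each culture received 100 pmol of siRNA for 3 days in DMEM with horse serum at low concentration and antibiotics, and no group without siRNA was part of the comparison. C2C12 is 1 cell line, so the replicates are cultures of the same cells, which the submitters call biological replicates. Polyadenylated RNA was sequenced from each.

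Glycolysis splits glucose into pyruvate, which is either reduced to lactate or carried into the mitochondrion, where pyruvate dehydrogenase turns it into acetyl-CoA. Many of its steps are run by several isozymes from separate genes, and as myoblasts become muscle, the muscle forms (such as PFK-M, PGAM2 and beta-enolase) largely take over from the widely expressed ones. Several of the widely expressed forms, glucose transporter 1 and pyruvate dehydrogenase kinase 1 are well-known targets of HIF-1, the transcription factor that accumulates when oxygen is low. Kinases of the PDK family phosphorylate and switch off pyruvate dehydrogenase, and the phosphatase PDP1 switches it on again.

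The libraries held 25223218 to 30865945 reads assigned to genes. The siRNA target Senp7 had 275, 279.2 and 346.7 normalized counts in SENP7 siRNA libraries, against 556.4, 616.4 and 648.8 in control libraries. A normalized count here is the number of reads of a gene divided by 1 scaling factor per library, so that 1 normalized count is about 1 read. The first principal component (64.4% of the variance) placed the SENP7 siRNA libraries between -27.7 and -32.5, control replicates 1 and 2 at 36.7 and 33.3, and control replicate 3 at 19.1, nearer to the SENP7 siRNA libraries. Results are therefore given with and without control replicate 3. That library was singled out from these same values. Where it lies toward the SENP7 siRNA libraries, larger differences and more calls without it follow from leaving it out and are no added support. Over all tested genes, the number called went from 3062 to 4702 without it. All 10 myotube markers were present, with sums of 655608 to 757415 normalized counts in SENP7 siRNA libraries and 593101 to 616840 in control libraries. 4 of the 10 were called higher in SENP7 siRNA libraries (Mymk, Myh8, Ckm and Tnnc2), and the others did not pass the test. Without control replicate 3, 5 were called higher (Myh3 in addition) and Des was called lower (-0.30, limma adjusted p = 0.00738). Of all tested genes, 10.2% were called higher and 10.7% lower, or 15.6% and 16.5% without that library. Of 5 markers of undifferentiated myoblasts, 3 were called higher (Pax7, Id1 and Id3) and 1 lower (Id2), and the 5 markers of cycling cells did not pass, with summed counts of 5437 to 7351 in SENP7 siRNA libraries and 6324 to 8610.5 in control libraries. Among markers of other cell types, the adipocyte genes Adipoq, Plin1 and Fabp4 averaged below 1 normalized count in each group, and Cebpa, which is not particular to adipocytes, averaged 317 ± 31.7 in SENP7 siRNA libraries and 315 ± 55.2 in control libraries (SD, n = 3 each). Of the osteoblast genes, Bglap, Alpl and Sp7 averaged below 22 and Runx2 did not pass the test, and of the fibroblast genes Dcn was called higher (1.05), Col1a1 (0.43) and Pdgfra (-0.15) did not pass and Lum was below the filter. The part of these markers in the results below was not tested. In bulk RNA, fewer cells of a type and less RNA per cell cannot be told apart, and that holds for every value given here.

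Across the 38 genes, SENP7 siRNA libraries had lower transcript levels of most widely expressed isozymes of glycolysis, and higher levels of the muscle phosphoglycerate mutase Pgam2, of cytosolic glycerol-3-phosphate dehydrogenase Gpd1, and of several genes on the pyruvate dehydrogenase side. 8 genes rose (21.1%) and 13 fell (34.2%) at an adjusted p below 0.05 by limma with Benjamini-Hochberg adjustment over the 14668 genes tested. Over all tested genes, 10.2% were called higher and 10.7% lower. The genes that rose were Pgam2, Gpd1, Ldhb, Pdk2, Pdp1, Mpc1, Dlat and Pdhx. Those that fell were Hk2, Pfkl, Pfkp, Pfkfb3, Aldoc, Pgk1, Pgam1, Bpgm, Eno1, Eno2, Pkm, Pdk1 and Pdk4. Without control replicate 3, 10 genes (26.3%) were called higher, against 15.6% of all tested genes, and 18 (47.4%) lower, against 16.5%. The median log2 fold change of the 38 genes was -0.17, and that of all tested genes was close to 0. For 26 genes (68.4%) the 3 SENP7 siRNA values lay entirely above (12) or below (14) the 3 control values, which held for 39.6% of all tested genes. In the authors' deposited table, 9 of the 38 genes had an adjusted p below 0.05 and a positive log2 fold change and 13 a negative one, and 9.26% of the 27493 genes with an adjusted p there, low ones included, were below 0.05. 20 of those 22 were among the 21 called here. In the authors' deposited table Eno3 (adjusted p = 0.017) and Ldha (0.00698) were called in addition, and Bpgm (0.0847) was not.

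**Figure D1:**
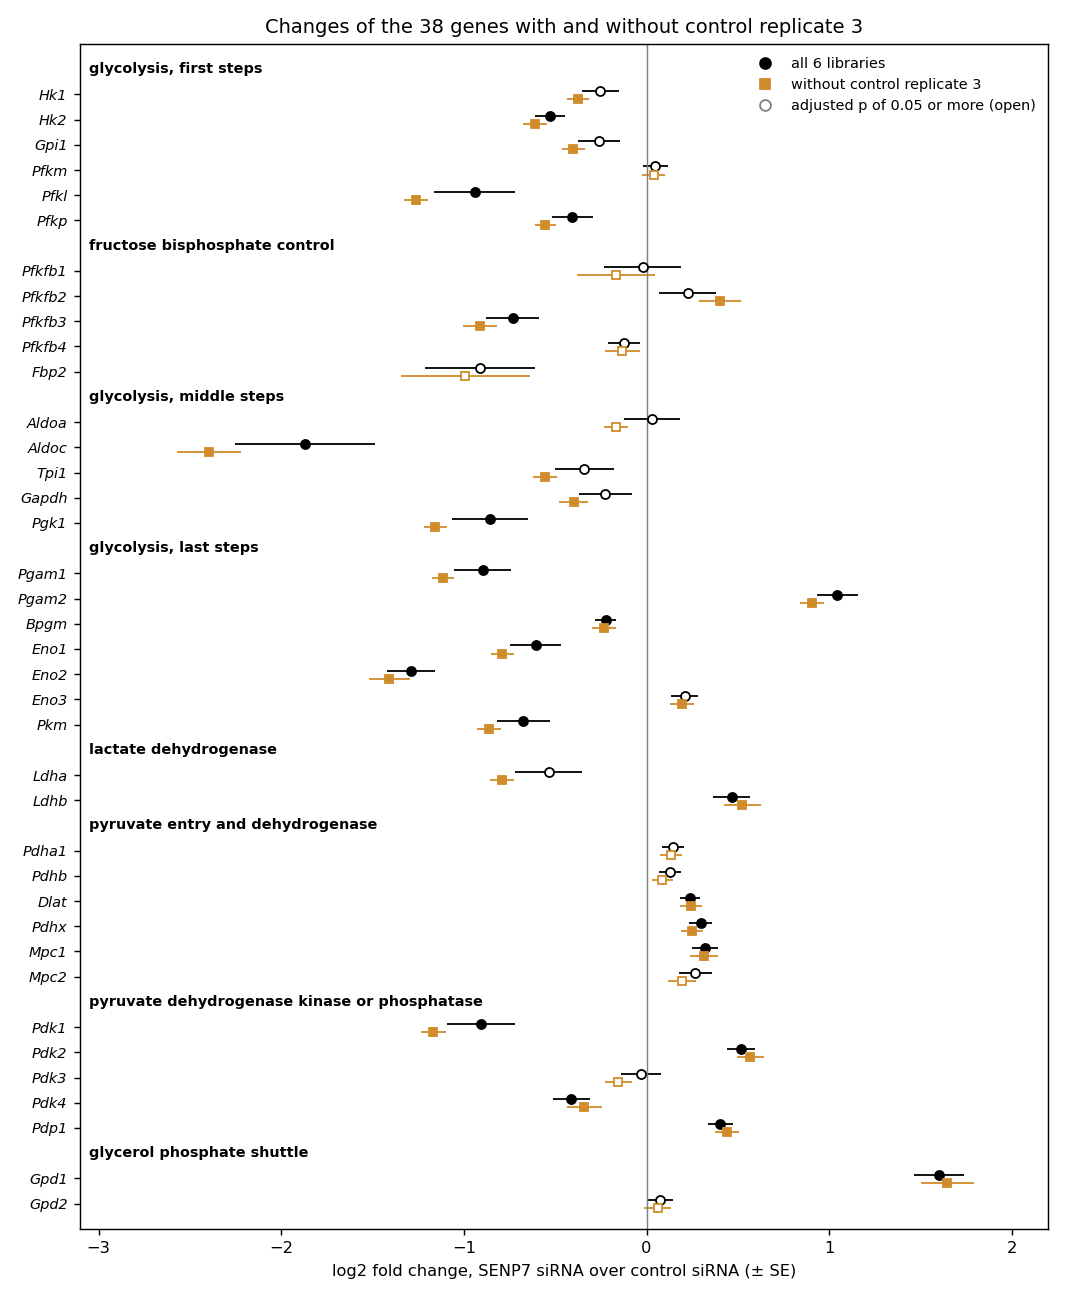
Change of each gene with SENP7 siRNA relative to control siRNA (x axis, log2 fold change on the log2(normalized count + 1) scale, bars ± SE from limma) for the 38 genes by step, with all 6 libraries (circles) and without control replicate 3 (squares), open symbols marking an adjusted p of 0.05 or more. Pgam2 (1.05) and Gpd1 (1.6) lie to the right, and most other enzymes between hexokinase and pyruvate kinase lie to the left, 12 of the 13 genes that fell lying further left without control replicate 3.

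Sorted by isozyme class, most widely expressed forms fell, while the muscle forms differed in direction. Of 9 widely expressed isozymes, 6 fell (Pfkl, Pfkp, Pfkfb3, Pgam1, Eno1 and Pdk1), and Hk1, Aldoa and Ldha did not pass the test, with a median log2 fold change of -0.61. Without control replicate 3, 8 of these 9 were called lower, Aldoa being the exception. Pdk2, which is widely expressed too but was counted with the kinases, rose. Aldoa and Ldha, counted as widely expressed, were also the main forms of their steps in these myotubes, so the counts depend on how genes were classed. Of 7 muscle isozymes, Pgam2 rose, Hk2 and Pdk4 fell, and Pfkm, Pfkfb1, Fbp2 and Eno3 did not pass, with a median of -0.02 and a range from -0.91 to 1.05. Of 6 enzymes encoded by a single main gene, Pgk1, Bpgm and Pkm fell, and Gpi1, Tpi1 and Gapdh did not pass the test. Without control replicate 3, all 6 were called lower. Of all tested genes, 10.2% were called higher and 10.7% lower, or 15.6% and 16.5% without control replicate 3. The added calls without that library follow from leaving it out and are no added support.

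At the first step, which traps glucose as glucose 6-phosphate, hexokinase 2, the insulin-responsive muscle form, was lower after SENP7 siRNA. Hk2 had 3141, 2990.1 and 2933 normalized counts in SENP7 siRNA libraries, against 4374, 4859 and 3881 in control libraries. No SENP7 siRNA value reached a control value, and the log2 fold change was -0.53 ± 0.08 (SE, limma adjusted p = 0.00275). Hk1, the form found in most tissues, had 6149.6, 5831 and 5858 in SENP7 siRNA libraries, against 7506, 7905 and 5981 in control libraries. Its groups overlapped through control replicate 3, and its log2 fold change of -0.25 ± 0.10 had an adjusted p of 0.108 (limma), or -0.37 with 0.000763 without that library. Per kilobase of exon, Hk1 was the more abundant of the pair in each group. The exon length used is 1 deposited value per gene (8532 bases for Hk1 and 5969 for Hk2). It need not be the length of the transcript made in these cells, so this and all later shares per kilobase are approximate. The share of Hk1 in the summed hexokinase level was 57.9 ± 0.31% in SENP7 siRNA libraries and 53.2 ± 1.34% in control libraries (SD, n = 3 each). Gpi1, glucose 6-phosphate isomerase, had 16872 to 18044 in SENP7 siRNA libraries, against 22819, 23268 and 17223 in control libraries, and did not pass the test (-0.26, adjusted p = 0.142 by limma, and -0.40 with 0.000597 without control replicate 3).

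Phosphofructokinase, the main control point of the pathway, differed by isozyme. Pfkm, the muscle subunit, had 23426, 23084 and 22706 normalized counts in SENP7 siRNA libraries, against 21694, 23195 and 22087 in control libraries, values that overlapped (log2 fold change 0.05 ± 0.07, limma adjusted p = 0.655). Pfkl, the liver-type subunit, had 4768, 4616 and 4292 in SENP7 siRNA libraries, against 11249, 10620.5 and 5603 in control libraries. All SENP7 siRNA values of Pfkl were below all control values, with control replicate 3 far below the other controls. Its log2 fold change was -0.94 ± 0.22 (limma adjusted p = 0.0181) and -1.26 without control replicate 3, but the call was lost without any 1 of the other 5 libraries (adjusted p 0.059 to 0.0915) and without the filter on low counts (0.189). Pfkp, the platelet-type subunit, had 2854, 2805 and 2701 in SENP7 siRNA libraries, against 3997, 4187 and 3009.6 in control libraries, again without overlap. Its log2 fold change was -0.41 ± 0.11 (limma adjusted p = 0.0329), a call also lost without any 1 of the 5 libraries other than control replicate 3 (0.0873 to 0.136). 5.58% of the exon length of Pfkp overlaps Pitrm1 on the opposite strand, and the strand setting of the read counting is not given in the sources used here. Per kilobase of exon, Pfkm made up 88.6 ± 0.33% of the summed subunit level in SENP7 siRNA libraries and 80.4 ± 5.05% in control libraries, and Pfkl made up 8.75 ± 0.30% in SENP7 siRNA libraries and 16.3 ± 4.71% in control libraries (SD, n = 3 each).

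The bifunctional enzymes that make and break down fructose 2,6-bisphosphate, an activator of phosphofructokinase, differed by form. Pfkfb3, the form whose kinase activity most outweighs its phosphatase activity, had 298, 279 and 281 normalized counts in SENP7 siRNA libraries, against 502, 579 and 372 in control libraries. Every SENP7 siRNA value was below every control value (log2 fold change -0.73 ± 0.15, limma adjusted p = 0.00856), and the call held in all 16 alternative settings. The muscle and liver form Pfkfb1 (33.1 to 51.2 over the 6 libraries), the heart form Pfkfb2 (243 to 389) and Pfkfb4 (341 to 410.2) overlapped between groups and did not pass. Pfkfb2 was called higher (0.40, limma adjusted p = 0.0194) when control replicate 3 was left out. Fbp2, the muscle fructose-1,6-bisphosphatase of the reverse reaction, had 6.21, 9.63 and 11.4 in SENP7 siRNA libraries, against 17.1, 20 and 15.6 in control libraries. These few counts did not overlap, but the difference of -0.91 ± 0.30 did not pass (limma adjusted p = 0.0613).

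In the middle of the pathway the most abundant transcripts did not pass the test. Aldoa, the main aldolase of muscle, had 56436, 56071 and 52959 normalized counts in SENP7 siRNA libraries, against 61854, 62076 and 40808 in control libraries. Control replicate 3 lay below and the other controls above all SENP7 siRNA values, so that the log2 fold change was 0.03 (limma adjusted p = 0.906) with all libraries and -0.17 (0.0689) without control replicate 3. Aldoc, the brain-type aldolase, had 41.7, 32.1 and 39.8 in SENP7 siRNA libraries, against 202, 202 and 67.1 in control libraries. The groups did not overlap, but control replicate 3 was far from the other controls. The log2 fold change of Aldoc was -1.87 ± 0.38 (limma adjusted p = 0.00946), and the call was lost without control replicate 2 (0.0547) or without the filter on low counts (0.0867). Aldoc made up 0.0613 ± 0.0089% of the summed aldolase level per kilobase in SENP7 siRNA libraries and 0.242 ± 0.0829% in control libraries (SD, n = 3 each).

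Tpi1, triosephosphate isomerase, had 23843, 22844 and 22413 normalized counts in SENP7 siRNA libraries, against 34986, 32783 and 21605 in control libraries. Gapdh, glyceraldehyde-3-phosphate dehydrogenase and a common reference gene, had 36409, 36297 and 31275 in SENP7 siRNA libraries, against 46952, 44272 and 31765 in control libraries. Both genes were lower in all SENP7 siRNA libraries than in control replicates 1 and 2, while control replicate 3 lay below all SENP7 siRNA values of Tpi1 and among those of Gapdh. By limma, Tpi1 (-0.34, adjusted p = 0.168) and Gapdh (-0.23, adjusted p = 0.305) did not pass with all libraries and were called lower without control replicate 3 (-0.56 with 8e-05, and -0.40 with 0.00289). Pgk1, phosphoglycerate kinase 1, which makes the first ATP of the pathway, had 8593, 8661 and 8021 in SENP7 siRNA libraries, against 19019.5, 18524 and 10084 in control libraries. Pgk1 fell without overlap between the groups, with a log2 fold change of -0.86 ± 0.21 (limma adjusted p = 0.0201). That call was lost without any 1 of the 5 libraries other than control replicate 3 (0.0667 to 0.0982) and without the filter on low counts (0.195). Without control replicate 3 the value was -1.16.

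At phosphoglycerate mutase the isozymes moved in opposite directions. Pgam2, the muscle mutase (ENSMUSG00000020475.3, GRCm38 chromosome 11, 5801640 to 5803733, minus strand), had 5995, 6053 and 5358 normalized counts in SENP7 siRNA libraries, against 3079, 3099.6 and 2317 in control libraries. All SENP7 siRNA values were above all control values, with a log2 fold change of 1.05 ± 0.11 (limma adjusted p = 0.000435) that was called in all 16 alternative settings (0.91 to 1.12). Pgam1, the widely expressed mutase (ENSMUSG00000011752.7, chromosome 19, 41911923 to 41918660, plus strand), had 1914, 1898 and 1808 in SENP7 siRNA libraries, against 4153, 3953 and 2589 in control libraries. All SENP7 siRNA values were below all control values, and the log2 fold change was -0.90 ± 0.15 (limma adjusted p = 0.00423, and -1.11 without control replicate 3), a call lost without the filter on low counts (0.0567). Per kilobase of exon, Pgam2 made up 88.1, 88.3 and 87.5% of the summed mutase level in SENP7 siRNA libraries, against 63.6, 64.9 and 67.9% in control libraries. The summed mutase level itself was 7852 ± 487 normalized counts per kilobase in SENP7 siRNA libraries and 5170 ± 958 in control libraries (SD, n = 3 each). Here control replicate 3 had the lowest Pgam2 and the lowest Pgam1 of the controls, so the share of Pgam2 in it was close to that in the other controls. Bpgm, the mutase that makes 2,3-bisphosphoglycerate, had 730.2 to 751 in SENP7 siRNA libraries and 851 to 885 in control libraries, a small difference without overlap (-0.22 ± 0.06, limma adjusted p = 0.0277) that was lost without any 1 of the 5 libraries other than control replicate 3 (0.0599 to 0.117), without the filter on low counts (0.0854) and with DESeq2 on the recovered reads (0.0506).

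The promoters of both mutases are shown because these genes moved in opposite directions, and those of Pfkl and Pgk1 because they fell with a wide gap between control replicates 1 and 2 and control replicate 3. They were thus picked by their change and do not stand for the other genes. Among other genes that rose, Pdhx, Pdk2, Ldhb and Mpc1 held the letters marked below, and among those that fell, Eno2 and Bpgm did not. Each window runs from 250 bases before to 50 bases after a start site of RefSeq on GRCm38.p6, 5′ to 3′ on the gene's strand, with capitals marking ACGTG or GCGTG on either strand, the core letters to which HIF-1 is known to bind.
Pgam2, chr11:5803747-5804046, minus strand: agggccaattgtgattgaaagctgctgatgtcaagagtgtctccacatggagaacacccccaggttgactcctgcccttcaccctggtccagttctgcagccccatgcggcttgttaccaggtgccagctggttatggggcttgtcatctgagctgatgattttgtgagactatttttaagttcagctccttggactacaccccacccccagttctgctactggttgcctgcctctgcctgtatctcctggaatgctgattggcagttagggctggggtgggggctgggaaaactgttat
Pgam1, chr19:41911621-41911920, plus strand: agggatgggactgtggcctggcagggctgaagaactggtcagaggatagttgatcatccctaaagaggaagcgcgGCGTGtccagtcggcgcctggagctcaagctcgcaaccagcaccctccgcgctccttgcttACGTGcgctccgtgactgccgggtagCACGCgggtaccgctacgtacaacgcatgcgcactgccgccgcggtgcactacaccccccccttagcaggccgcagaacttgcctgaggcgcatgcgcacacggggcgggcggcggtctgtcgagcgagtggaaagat
Pfkl, chr10:78009758-78010057, minus strand: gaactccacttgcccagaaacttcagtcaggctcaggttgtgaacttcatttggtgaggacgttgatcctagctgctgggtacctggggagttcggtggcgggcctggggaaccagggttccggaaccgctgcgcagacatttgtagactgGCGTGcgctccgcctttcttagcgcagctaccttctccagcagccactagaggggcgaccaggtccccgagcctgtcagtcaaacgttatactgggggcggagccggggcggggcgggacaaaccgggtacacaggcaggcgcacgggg
Pgk1, chrX:106186850-106187149, plus strand: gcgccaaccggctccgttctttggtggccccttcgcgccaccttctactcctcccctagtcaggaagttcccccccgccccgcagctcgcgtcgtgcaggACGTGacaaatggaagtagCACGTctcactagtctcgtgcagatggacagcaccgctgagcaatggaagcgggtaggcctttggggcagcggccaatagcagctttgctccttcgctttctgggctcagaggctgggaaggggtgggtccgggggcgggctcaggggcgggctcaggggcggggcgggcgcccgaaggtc
The window of Pgam1 held 3 matches, that of Pgk1 2, that of Pfkl 1 and that of Pgam2 0. CANNTG, the E-box letters to which myogenic factors such as myogenin are known to bind, occurred 5 times in the window of Pgam2. It occurred 3 times in that of Pfkl, 2 times in that of Pgk1 and 0 times in that of Pgam1. CACGTG holds both motifs and occurred in none of these 4 windows. RefSeq windows were at hand for 36 of the 38 genes (not for Gpd1 and Pdp1), 57 windows in all, as some genes have several starts. ACGTG or GCGTG was in 40 of the 57 windows (70.2%), against 43.8% of all 32851 windows of the same length. By call, these letters were in 4 of 8 windows of genes that rose, 15 of 19 of genes that fell and 21 of 30 of genes not called. These are counts of windows, in which genes with several starts count more than once. The windows belonged to 6 genes that rose, 13 that fell and 17 not called. Genes without a match in any window were Pgam2 and Dlat (rose), Eno2 and Bpgm (fell), and Gpi1 and Tpi1 (not called). CANNTG was in 68.4% of the windows of these genes and in 72.3% of all windows. Split by call, CANNTG was in 3 of 8 windows (rose), 11 of 19 (fell) and 25 of 30 (not called). A match is a run of letters and does not show binding.

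Enolase, the next step, had 3 expressed isozymes. Eno3, the muscle beta-enolase, had 42752, 42042 and 39306 normalized counts in SENP7 siRNA libraries, against 36542, 35849.9 and 34918 in control libraries. The groups did not overlap, but the log2 fold change of 0.21 ± 0.07 did not pass (limma adjusted p = 0.0767, and 0.0447 without control replicate 3). Eno1, the widely expressed alpha-enolase, had 18352, 18313 and 17756 in SENP7 siRNA libraries, against 32589, 30184 and 21428 in control libraries, without overlap. It fell with a log2 fold change of -0.61 ± 0.14 (limma adjusted p = 0.0158), and the call was lost without SENP7 replicate 1, 2 or 3 or control replicate 2 (0.053 to 0.0833) and without the filter on low counts (0.099). The near-identical copy Eno1b, with which reads of Eno1 could be shared, moved alike, with 3756 ± 57.5 in SENP7 siRNA libraries and 6025 ± 1542 in control libraries (SD, n = 3 each, -0.65, limma adjusted p = 0.0208), so the level of Eno1 is uncertain. The other 21 copies or pseudogenes matched by name averaged at most 28.1 normalized counts.

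Eno2, the neuronal gamma-enolase, had 668, 644 and 861 normalized counts in SENP7 siRNA libraries, against 1939, 1879 and 1481 in control libraries. It fell by 1.29 ± 0.13 on the log2 scale (limma adjusted p = 0.00035), in all 16 alternative settings (-1.42 to -1.21). Per kilobase of exon, Eno3 made up 87.1 ± 0.38% of the summed enolase level in SENP7 siRNA libraries and 78.7 ± 3.17% in control libraries (SD, n = 3 each), and Eno2 made up at most 1.5% in any library. These shares rest on deposited exon lengths of 1739 bases for Eno3 and 5379 for Eno1, which may differ from those of the transcripts made. Pkm, pyruvate kinase, whose gene count does not separate the M1 and M2 splice forms, had 53958, 52387 and 52876 in SENP7 siRNA libraries, against 99026, 93884 and 65358 in control libraries. All 3 SENP7 siRNA values of Pkm were below the control values (-0.67 ± 0.15, limma adjusted p = 0.0122), and the call was lost without SENP7 replicate 2 (0.0517) or control replicate 2 (0.0696) and without the filter on low counts (0.0874). 15.3% of its exon length overlaps a second annotated gene on the same strand, AC160637.1, to which a mean of 1930 normalized counts was assigned.

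Lactate dehydrogenase is a tetramer of 2 kinds of subunit, of which the A form favours lactate production and the B form is typical of heart. Ldha had 22807, 22533 and 21439 normalized counts in SENP7 siRNA libraries, against 39708, 37326 and 22652 in control libraries. Control replicate 3 lay among the SENP7 siRNA libraries and far below the other controls. The log2 fold change of Ldha was -0.54 ± 0.18 (limma adjusted p = 0.071) with all libraries and -0.79 (5.86e-06) without control replicate 3. Ldhb had 484, 453 and 462 in SENP7 siRNA libraries, against 290.3, 360.5 and 366 in control libraries. It rose without overlap (0.47 ± 0.10, limma adjusted p = 0.0132), a call lost without SENP7 replicate 1 (0.0611). Ldha remained the main subunit, at 95.8 ± 0.15% of the summed level per kilobase in SENP7 siRNA libraries and 97.7 ± 0.92% in control libraries (SD, n = 3 each).

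**Figure D2:**
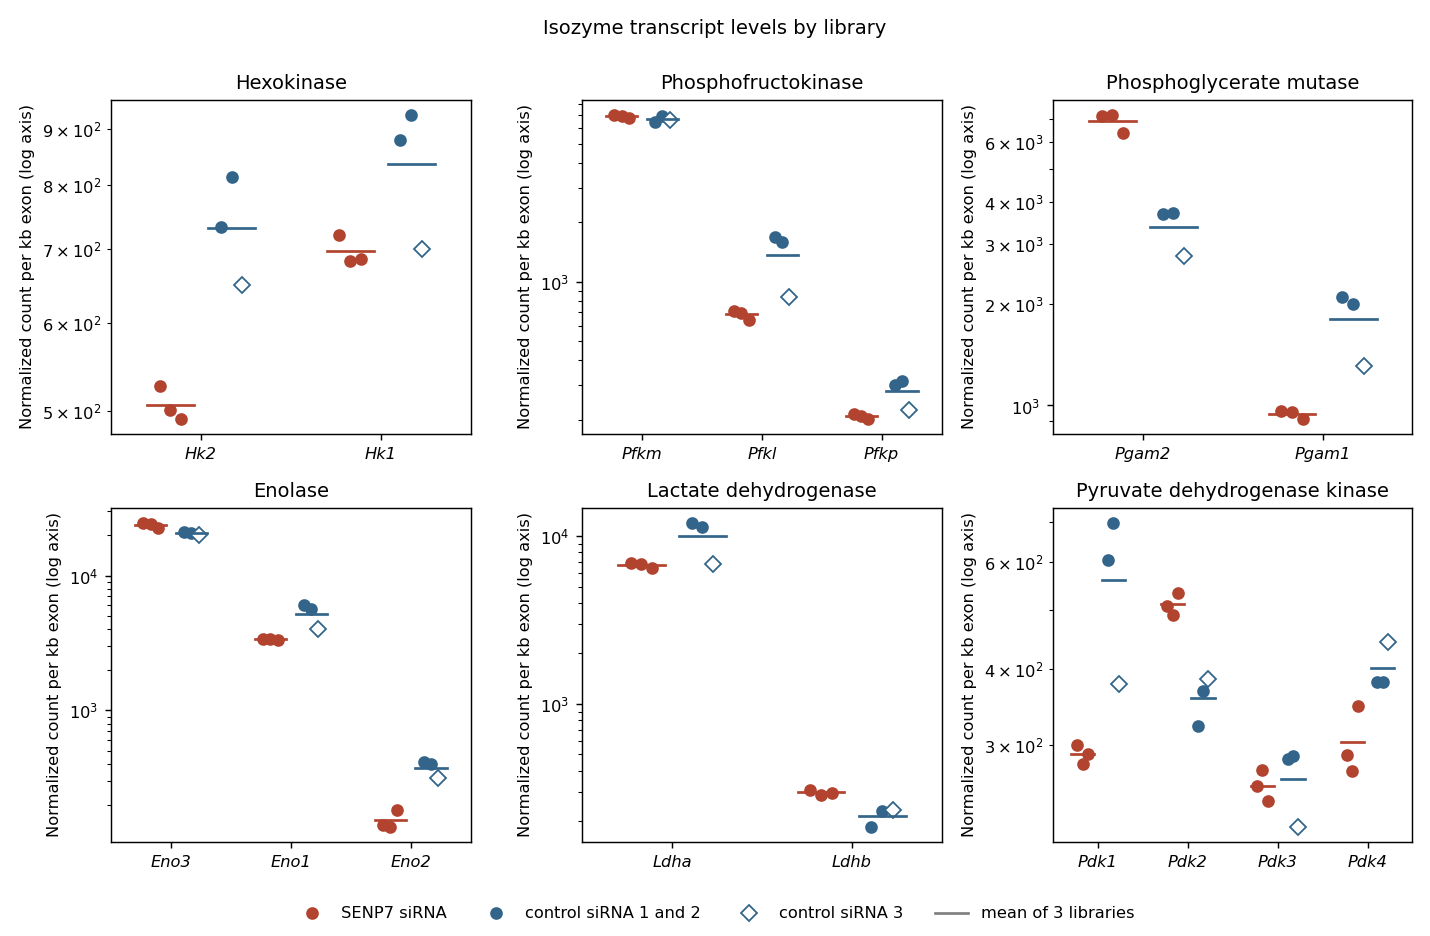
Normalized counts per kilobase of exon (log y axes) of the isozymes of 6 steps in each library, with SENP7 siRNA left and control siRNA right for each gene, control replicate 3 as an open diamond and bars at the mean of 3 libraries. Pgam2 is higher and Pgam1 lower in all 3 SENP7 siRNA libraries, and for Hk1, Pfkl, Eno1, Ldha and Pdk1 the diamond lies between the other controls and the SENP7 siRNA libraries or among them.

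The ratio of a pair of isozymes within a library does not depend on the scaling between libraries, and 9 pairs were compared. The mean log2 ratio differed most for Pgam2 over Pgam1, which was 1.63 ± 0.06 in SENP7 siRNA libraries and -0.31 ± 0.14 in control libraries (SD, n = 3 each), a difference of 1.94. Aldoa over Aldoc differed by 1.90, Pfkm over Pfkl by 0.99, Eno3 over Eno1 by 0.82, Pfkfb1 over Pfkfb3 by 0.71 and Pfkm over Pfkp by 0.45. Hk2 over Hk1 (-0.28) and Ldha over Ldhb (-1.0) differed in the other direction. In these 8 pairs the groups did not overlap, which with 3 against 3 libraries gives the smallest possible p of an exact two-sided permutation test, 0.1 (0.113 after adjustment over the 9 pairs), so no pair could pass a threshold of 0.05. Pdk4 over Pdk1 differed by 0.49 but overlapped (exact permutation p = 0.3). Against control replicate 3 alone, the difference was 1.79 for Pgam2 over Pgam1, 1.25 for Aldoa over Aldoc, 0.65 for Pfkfb1 over Pfkfb3, 0.48 for Eno3 over Eno1, 0.36 for Pfkm over Pfkl, 0.17 for Pfkm over Pfkp, -0.35 for Hk2 over Hk1, -0.37 for Ldha over Ldhb and -0.17 for Pdk4 over Pdk1. Against control replicates 1 and 2 it was 2.02 for Pgam2 over Pgam1, 1.30 for Pfkm over Pfkl, 0.98 for Eno3 over Eno1, -1.32 for Ldha over Ldhb and 0.83 for Pdk4 over Pdk1. The direction of 8 pairs was thus the same against either set of controls, and that of Pdk4 over Pdk1 was not.

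**Figure D3:**
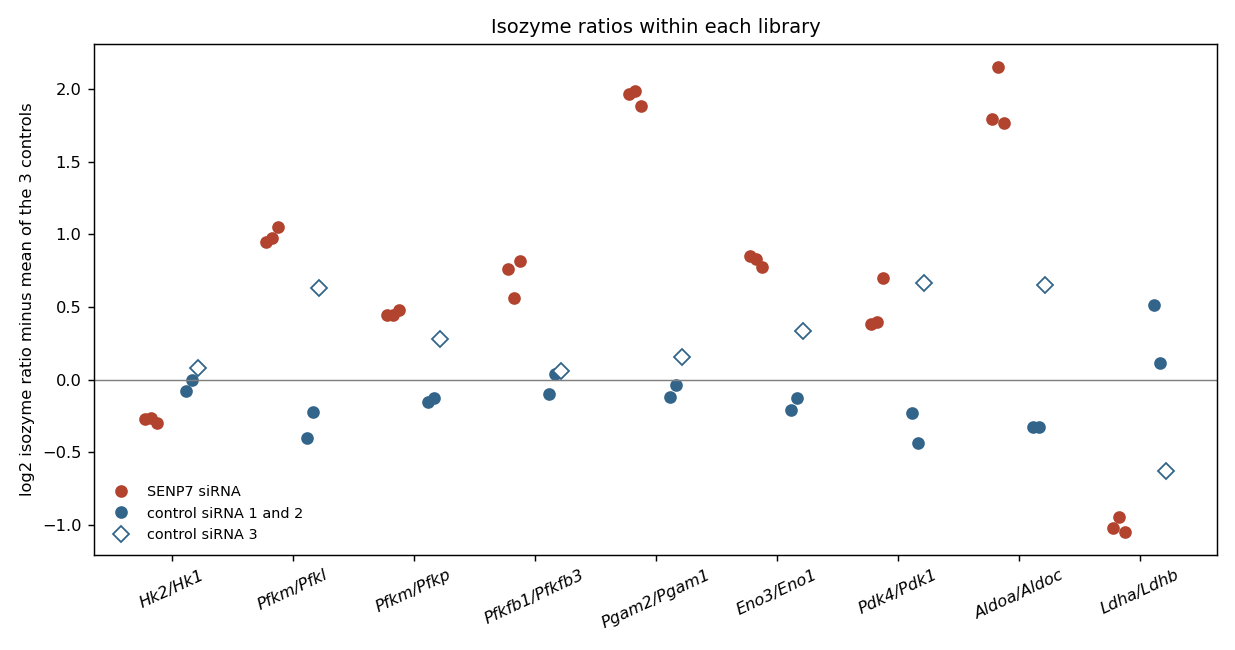
Log2 ratio of 9 isozyme pairs in each library, less the mean of the 3 control libraries (y axis), with SENP7 siRNA as filled red circles, control replicates 1 and 2 as filled blue circles and control replicate 3 as an open diamond. The groups are apart in every pair but Pdk4 over Pdk1. Control replicate 3 lies between the other controls and the SENP7 siRNA libraries in the pairs with Pfkl, Pfkp, Eno1, Aldoc and Ldha. It also does so, by smaller steps, in Pgam2 over Pgam1 and Pfkfb1 over Pfkfb3, and it lies on the far side in Hk2 over Hk1.

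On the mitochondrial side, some genes for the entry and oxidation of pyruvate rose by small steps. Of the 6 genes of the pyruvate carrier and of the dehydrogenase core, 3 rose (Mpc1, Dlat and Pdhx), and Mpc2, Pdha1 and Pdhb did not pass, with a median log2 fold change of 0.25. The share called higher over all tested genes was 10.2%. Mpc1, a subunit of the mitochondrial pyruvate carrier, had 692, 716 and 700.1 normalized counts in SENP7 siRNA libraries, against 531, 601 and 557 in control libraries (0.32 ± 0.07, limma adjusted p = 0.0135). 23.1% of its exon length overlaps a gene of few reads on the opposite strand. Dlat, the acetyltransferase core of the complex, had 3530.4, 3542 and 3796 in SENP7 siRNA libraries, against 2994, 3129.6 and 3084 in control libraries (0.24 ± 0.06, limma adjusted p = 0.0176). Pdhx, which anchors dihydrolipoamide dehydrogenase to that core, had 1519.9, 1492 and 1535 in SENP7 siRNA libraries, against 1290.1, 1262 and 1157 in control libraries (0.30 ± 0.06, limma adjusted p = 0.0104). The groups did not overlap for any of these 3 genes, and control replicate 3 lay among or below the other controls. The call of Mpc1 was lost without SENP7 replicate 1 or 2 (0.0539 and 0.0671), that of Dlat without SENP7 replicate 1, 2 or 3 or control replicate 2 (0.056 to 0.062), and that of Pdhx without SENP7 replicate 1 (0.0525). By limma, Mpc2 (0.27, adjusted p = 0.0629) and the subunits of the first enzyme, Pdha1 (0.14, 0.127) and Pdhb (0.13, 0.166), had positive values that did not pass. Dld, the dihydrolipoamide dehydrogenase that completes the complex and is not among the 38 genes, was called higher as well (0.23, limma adjusted p = 0.0154).

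The 4 kinases did not move together. Pdk1, the kinase induced by low oxygen, had 2329, 2167 and 2252 normalized counts in SENP7 siRNA libraries, against 4705, 5417 and 2943 in control libraries. It fell without overlap (-0.91 ± 0.19, limma adjusted p = 0.00949, and -1.17 without control replicate 3), a call lost without the filter on low counts (0.131). Pdk2, a kinase of most tissues, had 1607, 1553 and 1689 in SENP7 siRNA libraries, against 1020.0, 1163 and 1216 in control libraries. It rose without overlap, with control replicate 3 the highest control (0.52 ± 0.08, limma adjusted p = 0.00217), and the call held in all 16 alternative settings. Pdk4, the kinase induced by fasting in muscle, had 1013, 952 and 1221 in SENP7 siRNA libraries, against 1338, 1338 and 1554 in control libraries. The groups did not overlap (-0.41 ± 0.10, limma adjusted p = 0.0208), and the call was lost without SENP7 replicate 1 or 2 or control replicate 2 (0.0603 to 0.0853). Pdk3 (619.5 to 699 in SENP7 siRNA libraries and 562 to 735 in control libraries) overlapped and did not pass. Per kilobase of exon, Pdk2 had the largest share of the summed kinase level in SENP7 siRNA libraries, 37.6 ± 0.20%, against 22.8 ± 3.64% in control libraries, while Pdk1 had 21.3 ± 0.83% in SENP7 siRNA libraries and 34.9 ± 7.32% in control libraries (SD, n = 3 each). The first place of Pdk2 in SENP7 siRNA libraries depends on the deposited exon lengths, 3163 bases for Pdk2 and 7779 for Pdk1. The summed kinase level was 1360 ± 50.2 normalized counts per kilobase in SENP7 siRNA libraries and 1583 ± 154 in control libraries. Pdp1, the catalytic subunit of the phosphatase that reverses the kinases, had 1383, 1443 and 1533 in SENP7 siRNA libraries, against 1089, 1048 and 1156 in control libraries. It rose without overlap (0.40 ± 0.07, limma adjusted p = 0.00335) and in all 16 alternative settings.

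Gpd1 had the largest rise of the 38 genes. It encodes the cytosolic enzyme of the glycerol phosphate shuttle, which passes electrons from glycolytic NADH to mitochondria (ENSMUSG00000023019.12, GRCm38 chromosome 15, 99717515 to 99725005, plus strand). It had 515, 431 and 640.4 normalized counts in SENP7 siRNA libraries, against 167, 165 and 183 in control libraries. All SENP7 siRNA values lay far above all control values, among which control replicate 3 did not stand apart. The log2 fold change was 1.6 ± 0.14 (limma adjusted p = 0.000155), and 1.45 to 1.74 in the 16 alternative settings. Its mitochondrial partner Gpd2 had 940.5, 1009 and 1049.6 in SENP7 siRNA libraries, against 913, 1004 and 931 in control libraries. These values overlapped, and Gpd2 did not pass the test (0.07, limma adjusted p = 0.49).

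Control replicate 3 had lower values than the other controls for most of the 38 genes, called or not. It was the lowest control for 26 of the 38 and for 17 of the 18 enzymes between hexokinase and pyruvate kinase. By call, that held for 12 of the 13 genes that fell, 12 of the 17 not called and 2 of the 8 that rose. It also held for 8 of the 10 myotube markers, 0 of the 5 cycling cell markers and 11 of the 22 further genes tested below. The share over all tested genes was not computed, so the trait is not shown to be particular to the 38 genes. On the log2 scale, with the mean of control replicates 1 and 2 as 0% and the SENP7 siRNA mean as 100%, control replicate 3 lay at a median of 65.1% for the genes that fell (from -63.4% for Pdk4 to 79.9% for Pfkp) and of 6.42% for those that rose. For Hk1 (97.6%) and Ldha (96.7%) it was close to the SENP7 siRNA mean, and for Gpi1 (105%), Tpi1 (117%) and Gapdh (131%) beyond it. The summed normalized counts of the 38 genes were 363559, 357812 and 343418 in SENP7 siRNA libraries, against 484155, 472054 and 343366 in control libraries. These sums were 1.27 to 1.33% of the library in SENP7 siRNA libraries, against 1.74, 1.68 and 1.27% in control libraries. Senp7 itself was highest in control replicate 3, on the far side from the SENP7 siRNA libraries.

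A list of 14 genes known to be induced by low oxygen that are not glycolytic enzymes moved in the same samples. 11 of the 14 fell (Car9, Vegfa, Bnip3, Egln1, Egln3, Ndrg1, Ero1l, P4ha1, P4ha2, Higd1a and Mxi1), and Ankrd37, Kdm3a and Adm did not pass, with a median log2 fold change of -0.64. Without control replicate 3, 13 of the 14 were called lower, Adm being the exception. Of all tested genes, 10.7% were called lower with all libraries and 16.5% without control replicate 3. Car9, a carbonic anhydrase at the cell surface, averaged 107 ± 28 normalized counts in SENP7 siRNA libraries and 1134 ± 682 in control libraries, and Egln3, an oxygen-dependent prolyl hydroxylase, 1587 ± 194 in SENP7 siRNA libraries and 7068 ± 2124 in control libraries (SD, n = 3 each). The summed counts of the 14 genes were 30717, 30057 and 29245 in SENP7 siRNA libraries, against 59126, 60496 and 38407 in control libraries. Control replicate 3 was the lowest control for all 14 genes. The list was chosen with earlier results of these data known, so its counts are no independent support. The part of a low oxygen response in the values of these genes or of the glycolytic genes was not tested.

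**Figure D4:**
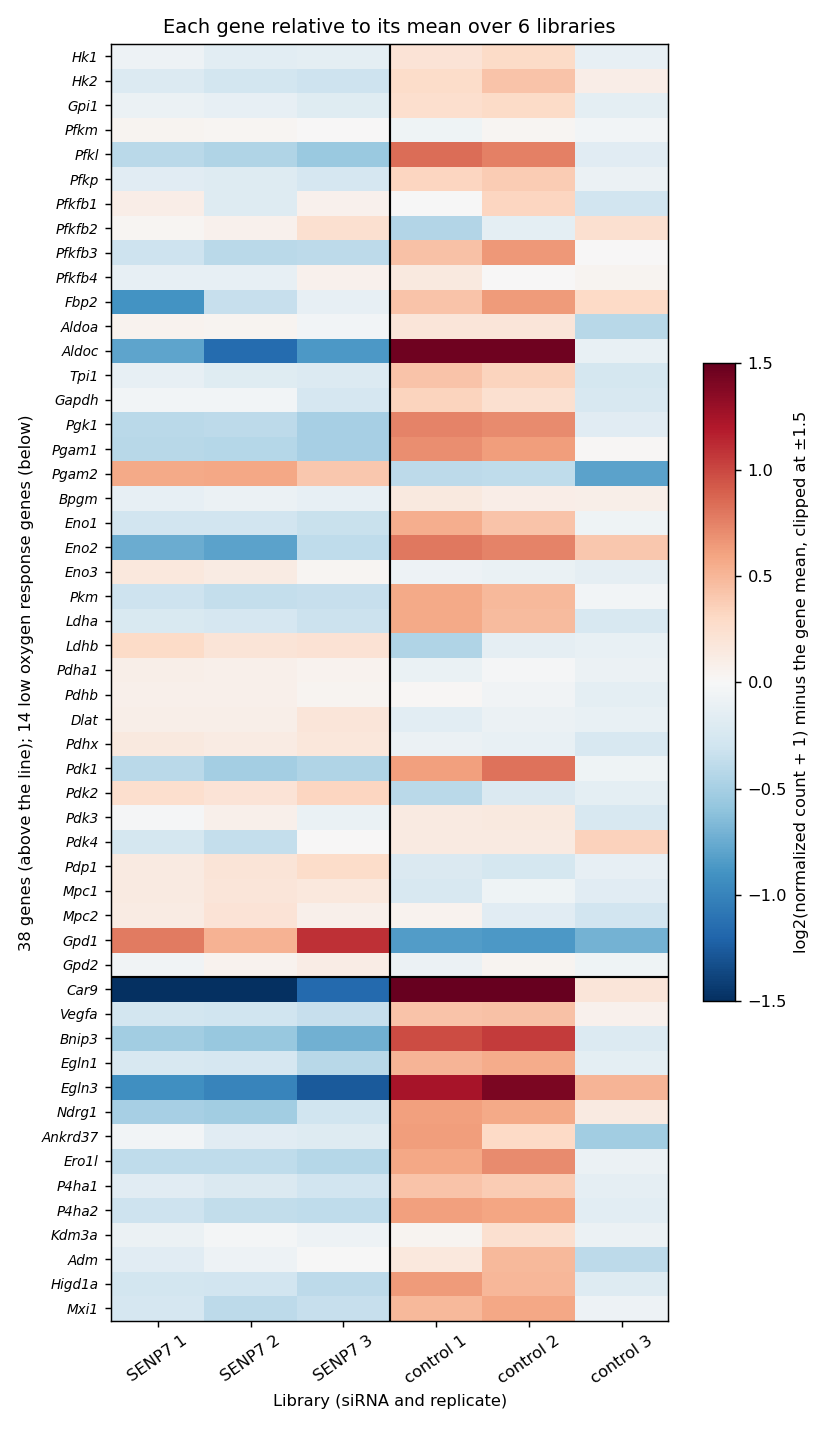
Log2(normalized count + 1) of each gene minus its mean over the 6 libraries (colour scale, clipped at ±1.5), for the 38 genes above the horizontal line and 14 low oxygen response genes below it, with SENP7 siRNA libraries left of the vertical line. Control replicate 3 is lower than control replicates 1 and 2 in most glycolytic and all 14 low oxygen rows, but not for Gpd1, Pdk2 or Pdp1.

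Of 33 further genes around these steps (other isozymes, neighbouring pathways and transporters), 22 passed the filter, of which 7 rose, 4 fell and 11 did not pass the test. Without control replicate 3, 7 were called higher and 6 lower. Of all tested genes, 10.2% were called higher and 10.7% lower, or 15.6% and 16.5% without control replicate 3. Slc2a4, the insulin-responsive glucose transporter of muscle and fat, averaged 124 ± 14.2 normalized counts in SENP7 siRNA libraries and 24.1 ± 5.67 in control libraries (SD, n = 3 each, log2 fold change 2.34, limma adjusted p = 0.000154). Slc2a1, the widely expressed glucose transporter, averaged 1812 ± 76.8 in SENP7 siRNA libraries and 3821 ± 1319 in control libraries (SD, n = 3 each, -1.01, limma adjusted p = 0.0148). Slc16a3, a lactate exporter, also fell (-1.08, limma adjusted p = 0.00431), and Slc16a1, the other monocarboxylate carrier listed, rose (0.33, 0.0332). Slc2a3, a further glucose transporter, averaged 54.3 ± 10.4 in SENP7 siRNA libraries and 126 ± 61.4 in control libraries (SD, n = 3 each) and did not pass (-1.07, limma adjusted p = 0.0753, and -1.57 with 9.07e-05 without control replicate 3). The other genes that rose were Ldhd, a D-lactate dehydrogenase, Dld, Pdp2, the second phosphatase, Pcx, pyruvate carboxylase, and Galm, which interconverts glucose anomers (0.23 to 1.71). G6pdx, which opens the pentose phosphate pathway (-0.37), and Minpp1, an inositol polyphosphate phosphatase (-0.29), fell. Fbp1, Pgk2, Pklr, Ldhc and Pdha2, the liver, red cell or testis forms, had 0 reads in all 6 libraries.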

How the data were processed

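RNA-seq libraries of 3 SENP7 siRNA and 3 control siRNA cultures were compared. The submitters' processing notes name STAR 2.6.1d, featureCounts 1.6.4, Trim Galore 0.6.4, bcl2fastq and DESeq2 as tools and GRCm38.p6 as build. Not given in the sources used here are the annotation release, the version of DESeq2 and whether counting used strand, while the library kit was directional, per the labels' protocols. The deposited table held a normalized signal per library, which from its values was the authors' read count divided by 1 factor per library. Per the file headers, further columns deposited by the authors were a log2 fold change with a standard error, a Wald score, the raw and adjusted p-value and the exon length of each gene. All positive values were whole multiples of 1 step per library within 0.1 read, so the reads could be recovered (100% of values).

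limma 3.58.1 (R 4.3.3) with a robust mean-variance trend was fitted to log2(normalized count + 1) where at least 3 libraries had 10 or more normalized counts, with only the group in the model, two-sided, adjusted by Benjamini-Hochberg over 14668 genes at 0.05. Fold changes on this scale understate those of low genes. Levels of isozymes were set against each other only per kilobase of exon. The length is the deposited exon length of each gene, not that of the transcripts made in these cells, so the shares are approximate. Values are normalized counts unless stated, with n = 3 per group. The limma p-values set the group difference against the variation between these cultures of 1 cell line, moderated across genes. All 38 genes are named, the called ones and isozyme pairs in full. Alternatives were other scalings, filters and pseudocounts, edgeR 4.0.16, DESeq2 1.42.0 and limma-voom on recovered reads, the replicate number as a block, and each library left out. The genes and lists were chosen with earlier results of these data known. Exon overlaps were read from the coordinates, promoters from RefSeq. A normalized count of a few is imprecise because it rests on a few reads.

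The fit was checked on simulated counts of 14529 genes, 200 of them changed. It recovered 69.5% of 1.5-fold, 94.6% of 2-fold and 100% of 4-fold changes, with 6 false calls. With no change simulated it called 0 of 14502 genes. The simulation held no control library that stood apart, and changes were simulated only in genes well above the filter. Its shares therefore do not carry over to genes whose controls were spread widely, such as Pgk1 and Pfkl. The protein comparison that had been planned was not run.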

Additional observations from a re-analysis of the deposited data

How the results depend on the processing

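The 8 genes that rose became 4 at an adjusted p below 0.01 and 2 in a test against a fold of 1.2, and the 13 that fell became 6 and 3. Over all tested genes, 3062 calls became 1398 and 841. With each library left out in turn, 4 to 10 of the 38 genes were called higher, 5 to 18 lower and 1619 to 4702 over all tested genes. Without the filter on low counts, 10 of the 38 were called higher (Eno3 and Mpc2 in addition), 5 lower and 3101 over 27493 genes, with Pfkl, Aldoc, Pgk1, Pgam1, Bpgm, Eno1, Pkm and Pdk1 losing the call. 7 genes were called in all 16 settings given per gene (Pgam2, Gpd1, Pdk2, Pdp1, Eno2, Hk2 and Pfkfb3), and the other 14 called genes lost the call in at least 1, the causes of which were not tested. Fewer samples are compared where a library is left out. Values that turned sign belonged to genes that did not pass, Pfkfb1 (0.00367 with limma-voom, 0.00335 with library totals, 0.07 and 0.14 without SENP7 replicate 2 or control replicate 2), Aldoa (-0.17 without control replicate 3) and Pdk3 (-0.15 to 0.039 as each library was left out, above 0 without SENP7 replicate 3, control replicate 1 or control replicate 2). Of 606 values under an alternative, 529 kept their direction and side of the threshold, 48 lost the call, 21 gained it and 8 turned sign.

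Same-numbered libraries had deviations that correlated at 0.13, 0.06 and 0.25. The value for replicate 2 missed the cut that was set, so the numbers were not taken to pair the cultures. SENP7 replicate 2 correlated best with control replicate 1. SENP7 replicate 3 correlated at -0.22 and -0.10 with control replicates 1 and 2. Control replicate 3 correlated at -0.15 and -0.16 with SENP7 replicates 1 and 2. Whether the cultures numbered 3 shared a condition was not tested. With the replicate number as a block, 10 of the 38 genes were called higher, 15 lower and 4175 over all tested genes; Hk1, Gpi1, Eno3, Ldha and Mpc2 gained a call and Pdk1 lost it (limma adjusted p = 0.0522). Pfkfb1, Fbp2 and Aldoc rest on few reads per library, which limits their precision.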
